A study of Mus musculus with 64 samples.

Results

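Tail DNA of mice that carried mobile PiggyBac (PB) or Sleeping Beauty (SB) transposons was compared to learn where each system had inserted in a tissue that had not been sampled as tumour. The samples were chosen by their labels, as every sample whose tissue is tail: 12 with genotype IMPB (PB tails) and 11 with genotype IMSB (SB tails), 23 of the 64 samples, each from a different mouse by its name. The remaining samples, 30 PB tumours and 11 SB tumours, were diffuse large B cell lymphomas and are used here only where stated.

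All mice carried an ITP transposon array together with a transposase knocked into Rosa26 and active in all tissues, Rosa26 PB or Rosa26 SB, and their background mixed C57BL/6, 129Sv and FVB. The SB mice came from crosses of Rosa26 SB/+ mice with mice of the ITP1-C or ITP2-M transposon line, all parents being Blm m3/m3, and were double or triple transgenic. The PB mice were ITP mice of an earlier cohort. The labels do not give the ITP line, the Blm status or the age of single mice, so transposase, cohort and donor array cannot be told apart. Tails were taken at necropsy as control DNA and hold several cell types, and the labels do not say which tail donors had a lymphoma or which mice were related. The assay reads DNA, so the cell types could not be checked with marker genes.

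A cut-and-paste transposase excises the transposon from its donor array and inserts it at a short target motif, TTAA for PB and TA for SB. PB is known for inserting near transcription start sites and in open chromatin, while SB is known for a more even spread in which the flexibility of the DNA around the TA matters. Both systems also insert more often close to the donor array, a property called local hopping. Positions of transposon and genome junctions were read by splinkerette PCR and sequencing of the amplified ends (QiSeq).

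Some insertion positions recurred between mice. The surroundings of a selection are shown, picked from the 11 PB positions in at least 4 tails and the 8 SB positions in at least 5. Sequences are from the plus strand of mm10 (GRCm38) in the RefSeq genome, with the target motif in capitals and 10 reference bases on each side. The first lines are PB positions in introns of Notch1 (positions 1 and 4, in 6 and 4 PB tails) and Hjurp (position 8, in 4 PB tails). The others are SB positions in En2 (position 1 in an exon, in 10 SB tails, and positions 4 and 5 in an intron, each in 5 SB tails), between genes on chromosome 2 (position 3 in 6 SB tails and position 6 in 5 SB tails), and in an intron of Chl1 (position 2, in 7 SB tails). Not printed are PB positions 2, 3, 5, 6, 9, 10 and 11 between genes and 7 in a Bcl2 intron, each in 4 PB tails. SB positions 7, in a Notch1 intron, and 8, in a Chl1 intron, each in 5 SB tails, are not printed either.
PB position 1, chr2:26500885-26500908: acagacctgcTTAAttggcttcag
PB position 4, chr2:26464095-26464118: gtcctgcagtTTAAgggaccccgg
PB position 8, chr1:88277038-88277061: gccaggcattTTAAaaaaccaggc
SB position 1, chr5:28170225-28170246: gaccaacaggTAcctgacagag
SB position 4, chr5:28169841-28169862: tgggatccccTAgtttgtgata
SB position 5, chr5:28169851-28169872: tagtttgtgaTAggccttttag
SB position 3, chr2:98666920-98666941: aaatgagaaaTAcacactttag
SB position 6, chr2:98665201-98665222: tagaacagtgTAtatcaatgag
SB position 2, chr6:103649258-103649279: ctcattgataTAcactgttcta

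The insertion table gives raw read counts per position, and each insertion was counted once per tail and motif, whatever its number of reads. Insertions on the sex chromosomes and on chromosome 14, the donor chromosome, were left out. The PB tails had 4010 ± 1926 insertions (SD, n = 12, lowest 2035, highest 7362) and the SB tails 4617 ± 1495 (SD, n = 11, lowest 2537, highest 7148), which did not differ beyond the spread between mice (two-sided permutation test, p = 0.41). The reads behind them ranged from 71232 to 193314 per PB tail and from 55502 to 369482 per SB tail (permutation test, p = 0.34). Since amplified reads carry no molecular identifier, they do not count molecules, and read numbers were used only as a minimum. In all, 48124 PB and 50789 SB insertions were kept, against 13199264 TTAA and 143206282 TA sites on the same chromosomes. Sample names were written in a joined form (5 PB and 7 SB tails) or a separated form (7 PB and 4 SB tails), which may mark a batch, so comparisons were repeated within each form. One library stood apart: SB tail 1 had 10.4% of its insertions on chromosome 16, where the other SB tails had a median of 4.60% and a highest value of 5.47%.

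PB insertions were concentrated in and around genes and SB insertions were not to the same degree. Relative to the share of TTAA sites, PB insertions within 5 kb of a transcription start site were 2.14-fold as frequent ± 0.106 (SD, n = 12, lowest 1.97, highest 2.35), since 16.98% of insertions but 7.92% of sites lay there. The SB ratio to TA sites was 0.932 ± 0.0644 (SD, n = 11, lowest 0.856, highest 1.06). Every PB tail was above every SB tail (adjusted p = 1.33e-05 over 4 features, permutation test with p = 1e-05, which is as small as 100000 resamples allow). Inside gene bodies the ratio was 1.31 ± 0.0314 in PB tails (lowest 1.27, highest 1.37) and 1.13 ± 0.0227 in SB tails (lowest 1.09, highest 1.17), again without overlap (permutation test, adjusted p = 1.33e-05). Within 5 kb of a termination site it was 1.36 ± 0.073 in PB tails (lowest 1.26, highest 1.497) and 0.959 ± 0.0582 in SB tails (lowest 0.866, highest 1.08) (permutation test, adjusted p = 1.33e-05). These 3 differences held within joined names (exact permutation test, adjusted p = 0.00168) and within separated names (adjusted p = 0.00404, where 0.00303 is the smallest unadjusted p the exact test allows). The difference at start sites was 1.26 among joined and 1.18 among separated names.

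Insertions inside genes lay in the sense orientation of the gene in 49.2% ± 1.08 of cases in PB tails (lowest 48.0%, highest 51.1%) and 47.6% ± 0.749 in SB tails (lowest 46.7%, highest 48.7%). The groups overlapped and differed by 1.55 percentage points (permutation test, adjusted p = 0.00075). The difference was 0.880 points among joined names, where the exact permutation test did not pass (adjusted p = 0.0795), and 2.05 points among separated names (adjusted p = 0.0152).

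The base composition of the neighbourhood separated the systems further. Windows of 100 kb were ranked by GC content and divided into 5 classes of equal number, and the share of insertions in each was divided by its share of motif sites. In the class lowest in GC (33.5 to 38.3% GC) PB tails had a ratio of 0.481 ± 0.0302 (SD, n = 12) and SB tails 1.05 ± 0.0387 (SD, n = 11), and that class held 12.2% of PB but 25.8% of SB insertions. In the classes that follow, PB ratios were 0.793, 1.15, 1.41 and, in the highest, 1.53 ± 0.0468. SB ratios were 1.03, 1.02 and 1.01 in the middle classes and 0.841 ± 0.04996 in the highest (45.4 to 58.9% GC). The systems did not overlap in any class, the third included, where PB tails lay between 1.11 and 1.22 and SB tails between 0.963 and 1.09 (permutation tests, adjusted p = 1.12e-05 in each class).

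**Figure D1:**
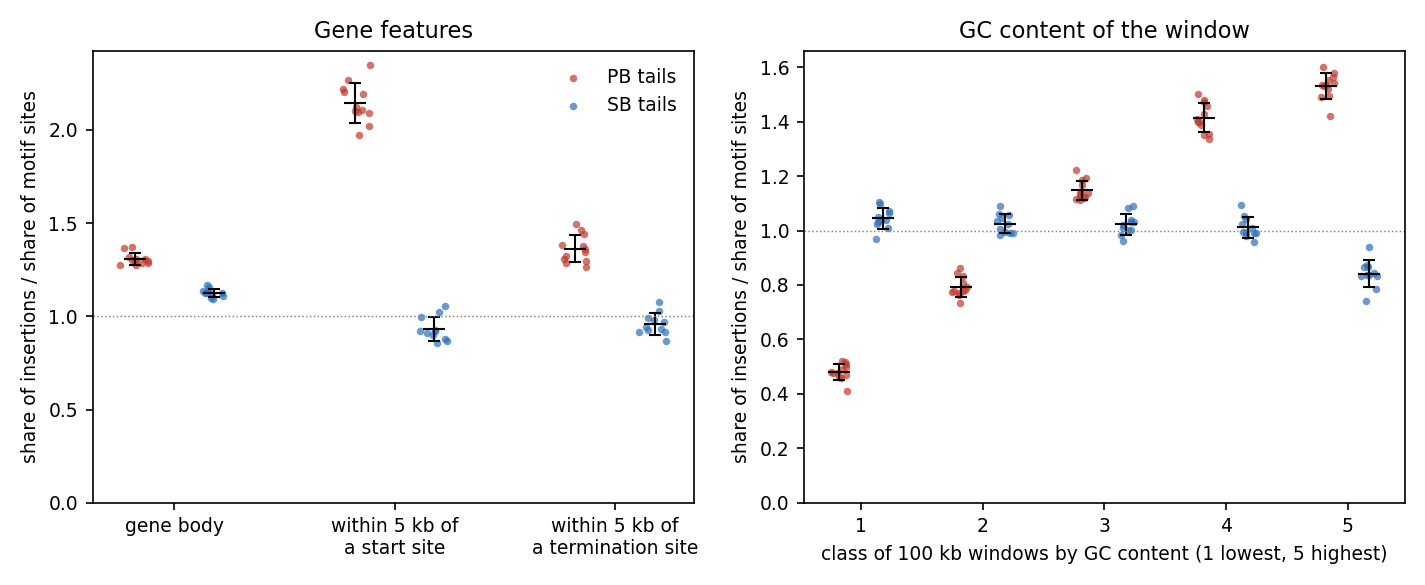
Share of insertions divided by share of motif sites (TTAA for PB, TA for SB) in each of 12 PB tails and 11 SB tails, for 3 gene features and for 5 classes of 100 kb windows by GC content. Points are tails, bars the mean ± SD, and the dotted line marks the frequency of the sites. PB tails lie between 1.97 and 2.35 near start sites and climb with GC content, while SB tails stay near 1.

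Gene content alone did not order the systems in the same way. In windows with up to 16.2% of their length inside genes the ratio was 0.634 ± 0.0256 for PB and 0.945 ± 0.0149 for SB. With 16.2 to 58.4% inside genes it was 1.25 ± 0.0249 and 0.933 ± 0.0366, and with 58.4 to 92.6% it was 1.45 ± 0.0537 and 1.05 ± 0.0524 (permutation tests, adjusted p = 1.12e-05 in all 3 classes). In windows that lay 92.6 to 100% inside genes, PB tails had 1.12 ± 0.0178 and SB tails 1.13 ± 0.0406, a difference of -0.0114 that did not pass (permutation test, adjusted p = 0.391). In windows of 1 Mb the order differed: PB was higher in the most genic class (67.2 to 100% inside genes), 1.17 ± 0.0481 against 1.04 ± 0.0509 (permutation test, adjusted p = 3.33e-05), and the class with 17.1 to 37.7% inside genes did not pass (adjusted p = 0.262).

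The motif itself carried flanking preferences in both systems, described here without a test. Of SB insertions, 76.4% had A at the third base before the TA, against 32.8% of all TA sites, and 53.7% had A at the base just before it, against 30.9%. The other side mirrored this, with T at the third base after the TA in 76.3%. PB insertions had T at the third base before the TTAA in 46.7%, against 33.9% of sites, and C at the second base before it in 28.5%, against 19.2%. G at the base just before the TTAA was found in 8.0% of PB insertions and 14.1% of sites. A TTAA contains a TA, and 9.22% of TA sites lie in one, but only 1.92% ± 0.285 of SB insertions did (SD, n = 11, lowest 1.25%, highest 2.19%). Just 5 of the 47203 positions used by PB were also used by SB, where 3.53 would be shared if each system chose among its TTAA sites independently.

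Repeated sequence was the other feature of the sites that differed. Of TTAA sites, 13.6% have an exact copy elsewhere in the genome of the motif with its 10 bases on each side, and of PB insertions 5.81% ± 0.464 were at such sites (SD, n = 12, lowest 4.96%, highest 6.88%), a ratio of 0.426. Of TA sites, 19.8% have such a copy, and of SB insertions 22.3% ± 0.703 (SD, n = 11, lowest 21.6%, highest 23.8%), a ratio of 1.12. How the aligner placed reads with several equal matches is not given in the sources used here. A position in repeated sequence is therefore less certain than one in unique sequence. Unique here means without an exact copy in the reference genome. Near copies and copies missing from the assembly were not looked for. Counts in unique sequence are given for the leading SB genes and some other regions, and no test was repeated on them.

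Exact positions were shared between mice more often than even use of the motif sites would give in both systems. Over the 66 pairs of PB tails, 1013 shared positions were found where even use gives 78.9, a 12.8-fold excess. Over the 55 pairs of SB tails 304 were found where even use gives 8.11, a 37.5-fold excess. The counts that follow are not set against even use, which gives more sharing in PB because TTAA sites are fewer. PB sharing was broad and shallow: 845 of 47203 positions were in at least 2 tails (1.79%), 11 in at least 4 and 1 in at least 5. SB sharing was narrower, with 145 of 50595 positions in at least 2 tails (0.287%), 10 in at least 4 and 8 in at least 5.

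The PB position found in most tails, position 1 in the first printed line, is in Notch1, a receptor that controls cell fate in epidermis and lymphocytes. All 11 PB positions found in at least 4 tails have a sequence that occurs once in the genome. The SB position found in most tails, the En2 exon position, was also found in 10 of the 11 SB tumours. Its sequence occurs once in the reference genome. Of the 8 SB positions found in at least 5 tails, 5 lie in repeated sequence: the sequence printed for SB position 3 occurs 146 times and that of the Chl1 position 9 times. SB position 6 on chromosome 2 is the reverse complement of the Chl1 position on chromosome 6, so these positions carry the same letters and cannot be told apart by them. These positions were chosen after their values were seen.

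Between chromosomes the differences were small and the groups always overlapped. Of the 18 chromosomes, 9 differed in their share of insertions (50%, permutation tests, adjusted p below 0.05), 6 higher in PB (33.3%) and 3 in SB tails (16.7%). Chromosome 13 held 6.02% ± 0.356 of PB insertions (lowest 5.56%, highest 6.68%) and 5.10% ± 0.445 of SB insertions (lowest 4.28%, highest 5.76%), the clearest difference (adjusted p = 9e-04). Chromosome 1 held 8.36% ± 0.218 and 7.73% ± 0.432 (adjusted p = 0.00135). Chromosomes 2, 4, 9 and 11 were also higher in PB tails, and chromosomes 8, 18 and 19 in SB tails. Relative to motif sites 7 chromosomes differed (38.9%): 1, 4, 11 and 13 higher in PB tails (22.2%), and 8, 18 and 19 in SB tails. On chromosome 19 the ratios were 1.11 ± 0.144 for PB and 1.26 ± 0.137 for SB (permutation test, adjusted p = 0.041).

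Within name forms, the chromosome 13 difference was 0.919 points among joined names (exact permutation test, adjusted p = 0.0795) and 0.842 among separated names (exact permutation test, adjusted p = 0.0545). That of chromosome 1 was 0.594 (adjusted p = 0.129) and 0.655 (adjusted p = 0.0545) in the same exact permutation tests. Without SB tail 1, 4 chromosomes differed in share (1, 8, 13 and 18) and 7 relative to sites. With insertions of at least 10 reads chromosome 13 alone passed (permutation test, adjusted p = 0.0196). With chromosome 14 kept in the total, chromosomes 8, 18 and 19 turned to higher shares in PB tails.

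**Figure D2:**
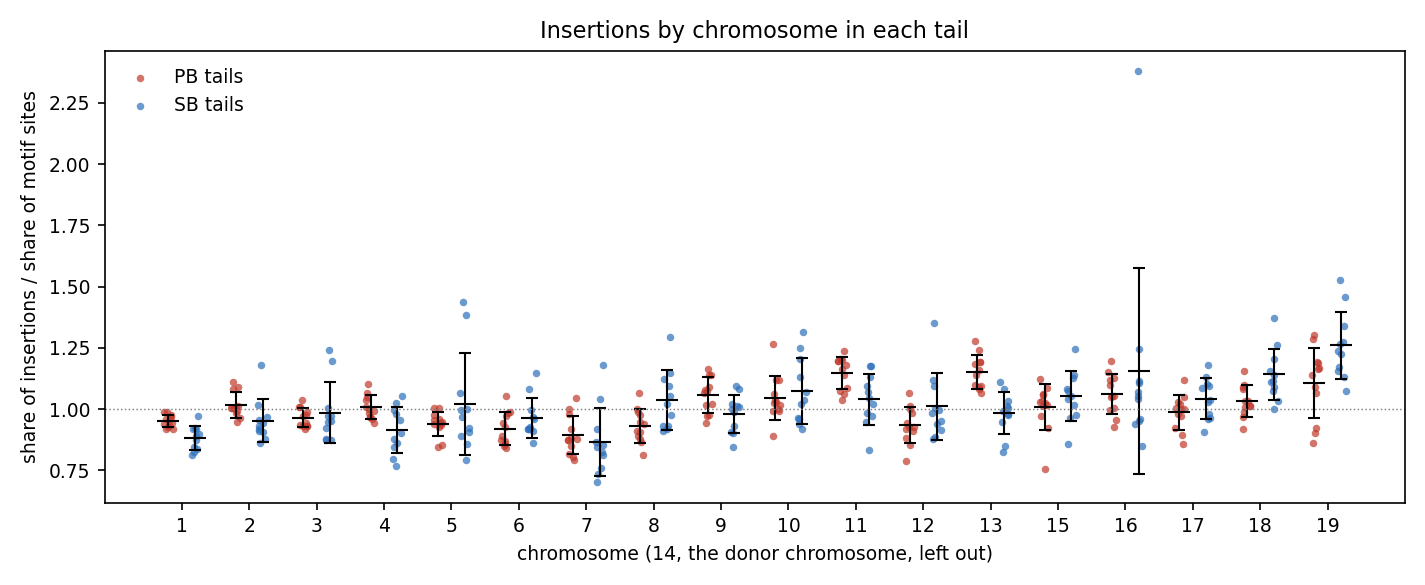
Share of insertions divided by share of motif sites for each chromosome in each of 12 PB tails (red) and 11 SB tails (blue). Points are tails, bars the mean ± SD, and chromosome 14 is left out. SB tails scatter more widely, and the highest point on chromosome 16 is SB tail 1.

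Apart from single chromosomes, the systems differed in how much single mice departed from their group. This measure was chosen after the values were seen, as 1 of 6 measures of unevenness. For each tail, a chi-square per degree of freedom compared its chromosome counts with those of the other tails of its system. Counting alone gives a value near 1, slightly above it because the pool of other tails is finite. PB tails had 0.999 ± 0.286 (SD, n = 12, lowest 0.395, highest 1.47). SB tails had a median of 3.18 (n = 11, lowest 1.39, highest 39.6), so all but the lowest SB tail were above every PB tail (permutation test, adjusted p = 3e-05 over the 6 measures). With SB tail 1 left out of the mean, the SB value was 4.09 in place of 7.32 (permutation test, p = 1e-05). That tail stayed in the pool against which the other SB tails were compared. Tails of a system share most of their pool, so their values are not independent and the p-values are approximate. The excess of the chi-square over 1, per 1000 insertions of the tail, was -0.0104 ± 0.105 in PB and 1.11 ± 1.63 in SB tails (permutation test, adjusted p = 3e-05).

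Part of each departure lay in a single 10 Mb stretch. SB tail 1 had 144 insertions between 30 and 40 Mb of chromosome 16, 2.19% of its total, where the other SB tails had a median of 0.336%, a 6.52-fold excess. SB tail 9 had 139 insertions between 80 and 90 Mb of chromosome 5, 3.899-fold the median of the others. SB tail 7 had a 3.50-fold excess in the first 10 Mb of chromosome 5. SB tail 6 had 71 between 10 and 20 Mb of chromosome 8, 2.92-fold. The steepest in PB tails was 3.55-fold, 34 insertions of PB tail 5 between 120 and 130 Mb of chromosome 10. The fold excess of a tail's most excessive 10 Mb stretch was higher in SB tails, with overlap between the groups. It was 1.89 ± 0.568 in PB and 2.86 ± 1.397 in SB tails (permutation test, adjusted p = 0.0234 over the 6 measures). Without SB tail 1 the SB mean was 2.49 (permutation test, p = 0.0418). The chi-square per degree of freedom over 10 Mb stretches was 1.16 in PB and 2.06 in SB tails (permutation test, adjusted p = 0.00906). The share of a tail's insertions in its most excessive stretch did not differ, 0.865% ± 0.307 in PB and 1.13% ± 0.497 in SB tails (permutation test, p = 0.147). Genes and windows in these regions are marked where they appear among the results.

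**Figure D3:**
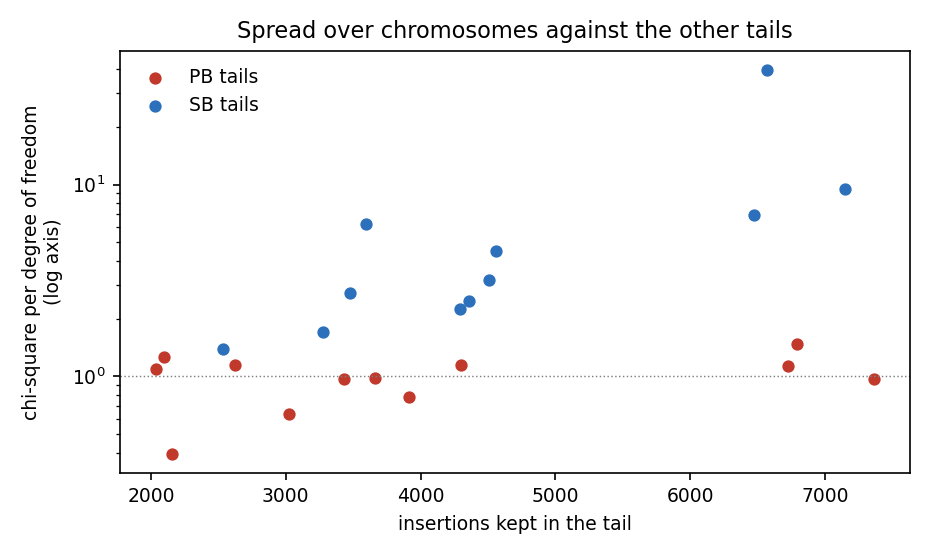
Chi-square per degree of freedom of each tail's chromosome counts against the other tails of its system (log axis) by the number of insertions kept in the tail. The dotted line at 1 is close to the spread that counting alone gives. PB tails lie between 0.395 and 1.47 and SB tails between 1.39 and 39.6.

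Single genes were compared by the number of insertions between their start and end, in 2 tests: as a share of the tail's insertions, and relative to the gene's share of the motif sites. Of 24020 genes on the chromosomes kept, 1318 had at least 10 insertions over the 23 tails and were tested with edgeR's quasi-likelihood test. In the share, 111 genes differed (8.42%, Benjamini-Hochberg adjusted p below 0.05), 66 of them higher in PB and 45 higher in SB tails. Trimmed mean (TMM) scaling gave 28 and 45. It moved the median log2 of PB over SB across tested genes from 0.16 to 0.02, and the changes given here are on the unscaled shares. Relative to sites 108 genes differed (8.19%), 57 higher in PB and 51 in SB tails, or 23 and 55 with TMM scaling. The 97 genes that passed both tests in the same direction (7.36%) are described here, 52 higher in PB (3.95%) and 45 higher in SB tails (3.41%). All 97 kept their direction with TMM scaling, and 26 of the 52 and all 45 still passed in the share. With the name form as a term in the fit, 42 of the 52 and 38 of the 45 still passed, while 9 genes passed within joined and 23 within separated names alone. With insertions of at least 10 reads 40 of the 52 and 39 of the 45 could be tested, and 21 and 21 still passed. With DESeq2 it was 28 of 33 and 23 of 30 that it gave an adjusted p. When tails with an insertion were counted in place of insertions, 33 of the 52 and 31 of the 45 could be tested. Of these 0 passed (edgeR, with 32 of 844 genes at an unadjusted p below 0.05). En2, with an insertion in all 11 SB tails and in no PB tail, did not pass either. This setting could therefore hardly call any gene, and its count of 0 says little about single genes.

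Genes called higher in PB tails were of ordinary length and had many PB insertions, while genes called higher in SB tails were mostly long genes with few PB insertions. The 52 had a median length of 216 kb, close to the 229 kb of all genes tested, with a median of 3.81 times the PB insertions that their TTAA sites give and 0.578 times the SB insertions that their TA sites give. The 45 had a median length of 584 kb, with 0.234 times the PB and 1.34 times the SB insertions. Over all genes tested these medians were 1.71 for PB and 1.37 for SB. All 52 had 10 PB insertions or more, and 4 had as many SB insertions. All 45 had 10 SB insertions or more, and 13 had as many PB insertions. Most genes of both sets thus entered the test through the system in which they are higher. Where PB insertions fall short of the sites, a call also needs enough sites to expect insertions from, which favours long genes. The lengths and medians describe the calls and do not support them.

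**Figure D4:**
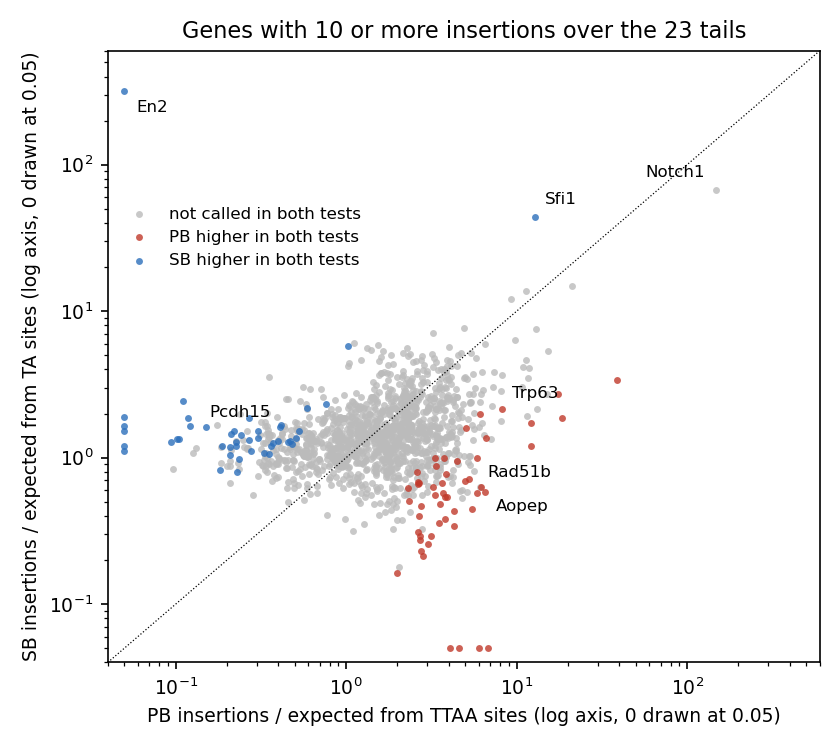
Observed over expected insertions of 1318 genes in SB tails (vertical) against PB tails (horizontal), on log axes with 0 drawn at 0.05. Coloured points passed both tests: 52 genes higher in PB and 45 higher in SB tails, and the dotted line marks equality. The SB calls cluster left of 1 on the PB axis, apart from Sfi1 and 1 other gene, and En2 is the highest point.

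Rad51b, which acts in repair of DNA breaks by homologous recombination, had 72 insertions spread over all 12 PB tails and 12 insertions in 7 SB tails. Per 1000 insertions of a tail it had 0.477 at the lowest, 1.39 at the median and 2.46 at the highest in PB tails, and 0, 0.154 and 0.611 in SB tails. It lies at chr12:79297282-79848260, and the ratio of the shares was 6.33 (95% exact interval 3.41 to 12.8 from counting error). The log2 difference was 2.52 ± 0.44 (SE, edgeR, adjusted p = 1.11e-05). Bard1, the partner of BRCA1 in the same pathway, had 14 insertions in 9 PB tails and none in SB tails, at least 4.93-fold more. For genes without an insertion in one system, the bound sets 3 insertions over that system's tails.

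Aopep, which encodes an aminopeptidase, had 43 insertions in all 12 PB tails (0.511, 0.943 and 1.47 per 1000 at the lowest, median and highest) and 4 in 3 SB tails (highest 0.280 per 1000). Every PB tail was above every SB tail, with a log2 difference of 3.12 ± 0.55 (edgeR, adjusted p = 1.11e-05). Stard13, a RhoGAP with a lipid-binding domain, had 38 insertions in 11 PB tails (median 0.836 per 1000, highest 1.98) and 8 in 6 SB tails (median 0.154, highest 0.304), a ratio of 5.01. Atg10, an enzyme of autophagosome formation, had 26 in 11 PB tails and 4 in 2 SB tails, a ratio of 6.86. Nhsl1, a regulator of actin and cell migration, had 23 in 9 PB tails and 3 in 3 SB tails, a ratio of 8.09 (95% exact interval 2.44 to 42.1). D630045J12Rik, Ppp1r1c and Tspan5 had no SB insertion and 14, 13 and 12 PB insertions, at least 4.93-, 4.57- and 4.22-fold more.

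Trp63, the transcription factor of basal cells in stratified epithelia, was among the leading genes. It lies on chromosome 16 (chr16:25683763-25892088, plus strand) and had 43 insertions in all 12 PB tails, with 0.464, 0.751 and 3.34 per 1000 at the lowest, median and highest. SB tails had 11 insertions in 7 mice, with 0, 0.222 and 0.466 per 1000. The groups touched at their edges, and the log2 difference was 1.96 ± 0.47 (edgeR, adjusted p = 0.00317). PB reached 8.16 times and SB 2.15 times what the sites give. Most of it came from 1 window of 100 kb at the end of the gene (chr16:25800001-25900000), with 36 PB insertions in 11 tails and 5 SB insertions in 4.

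**Figure D5:**
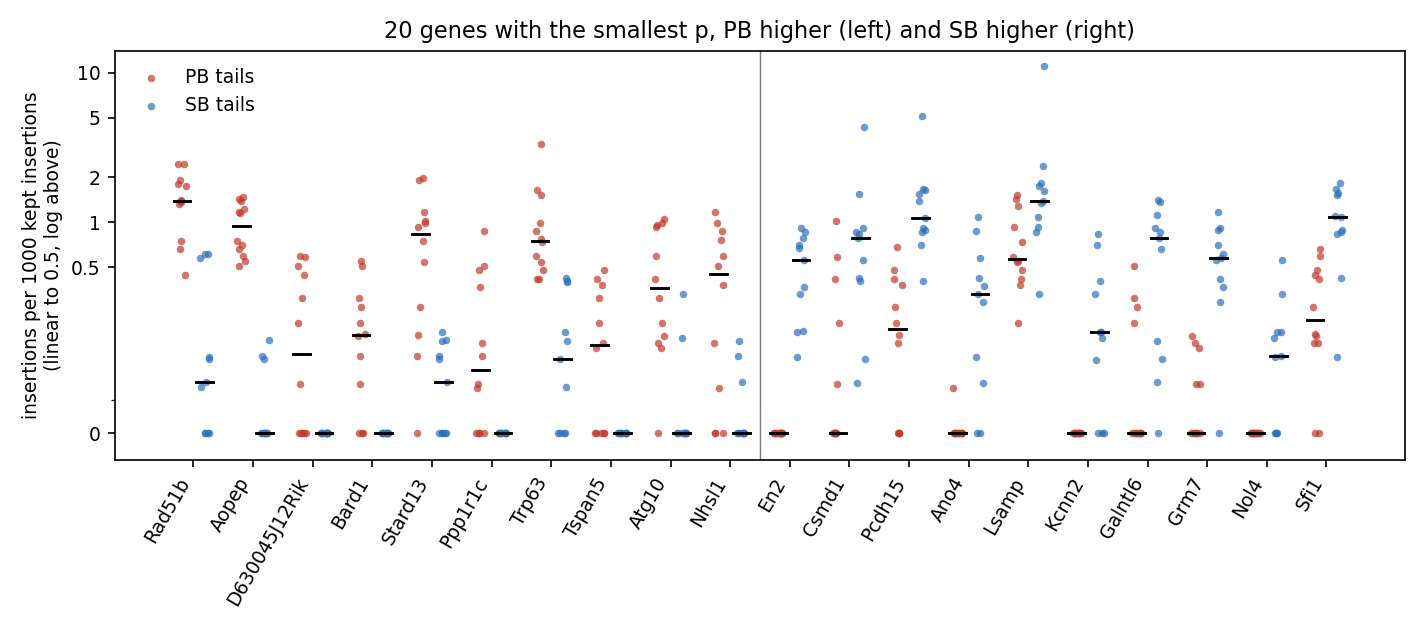
Insertions per 1000 kept insertions in each tail for the 10 genes with the smallest p higher in PB (left) and the 10 higher in SB tails (right), on an axis that is linear to 0.5 and logarithmic above. Points are 12 PB and 11 SB tails and bars the medians. In Aopep and En2 the groups do not overlap, and the highest SB points in Lsamp, Pcdh15 and Csmd1 belong to single tails.

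Lists of genes for the tissues of a tail put these genes in context, beside a median log2 of PB over SB of 0.16 over all 1318 genes tested, of which 3.95% were higher in PB and 3.41% in SB tails in both tests. Of 38 epidermal keratin, junction and differentiation genes, 7 had enough insertions to be tested. Trp63 was the 1 that was higher in PB tails in both tests, none was higher in SB tails, and the median over the 7 was 1.36. All 38 together had 4.30 ± 1.41 insertions per 1000 in PB tails (6.68 times the sites) and 1.64 ± 0.574 in SB tails (2.69 times). Of 31 dermal fibroblast and matrix genes 9 were tested with no call in both tests and a median of 0.99. Of 20 cartilage and bone genes 7 were tested, with a median of 0.76 and 1 higher in PB tails: Trps1, a zinc finger repressor of cartilage and hair follicles, with 46 insertions in 11 PB tails and 13 in 7 SB tails (log2 difference 1.75 ± 0.45, edgeR, adjusted p = 0.0061).

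Of 19 skeletal muscle genes 3 were tested, with no call and a median of -0.33. Lymphoid genes were included because tails hold blood, and of 25 B-lineage genes 5 were tested, with a median of 1.14 and 1 higher in PB tails. That gene was Bach2, a repressor in B cells, with 19 insertions in 9 PB tails and 2 in 2 SB tails, a ratio of 10.03 with a counting interval of 2.42 to 88.8, which did not pass with insertions of at least 10 reads (edgeR, adjusted p = 0.085). Of 34 chromatin regulators 17 were tested, with no call and a median of 0.06. Whether the cells of the tail differ between the cohorts was not tested.

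The genes higher in SB tails were led by En2, a homeobox gene of midbrain and hindbrain. It had 26 SB insertions over all 11 SB tails, with 0.229, 0.556 and 0.916 per 1000 at the lowest, median and highest, and no insertion in any PB tail. The share was at least 8.21-fold higher in SB tails (edgeR, adjusted p = 1.25e-05). The gene is 6.495 kb long (chr5:28165696-28172190), and its SB count was 320 times what its TA sites give. The 3 En2 positions printed in the list of sequences were in 10, 5 and 5 of the SB tails. All 26 insertions are in sequence that occurs once in the reference genome. Copies in the transposon's own sequence were not looked for, so whether reads of the transposon itself were placed here was not tested.

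Sfi1, a centrin-binding protein of centrosomes, was hit often in both systems and more in SB tails. It had 17 insertions in 10 PB tails (median 0.339 per 1000, highest 0.661) and 58 in all 11 SB tails (median 1.08, highest 1.82), overlapping groups with a log2 difference of -1.59 ± 0.43 (edgeR, adjusted p = 0.00975). With insertions of at least 10 reads Sfi1 did not pass (adjusted p = 0.0511). Relative to sites the counts were 12.7-fold for PB and 44.2-fold for SB. Without sites that have an exact copy in the reference genome, 17 PB and 32 SB insertions remained. Foxf2, which was listed with En2 and Sfi1 as a known hotspot, had no insertion in either group.

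Most other leading SB genes were long genes of the nervous system. Of 37 long neuronal genes, all were tested, 12 were higher in SB tails in both tests (3.41% of all genes tested were), none was higher in PB tails, and their median log2 of PB over SB was -1.09. Together they had 15.1 ± 1.83 insertions per 1000 in PB tails (lowest 12.3, highest 18.7) and 28.7 ± 5.06 in SB tails (lowest 20.9, highest 39.6). Relative to sites this was 0.583 for PB and 1.17 for SB. So the list held fewer PB insertions than its sites give, and SB insertions near their number.

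Pcdh15, a cadherin of the tip links of inner ear hair cells, had 16 insertions in 8 PB tails (0, 0.312 and 0.679 per 1000 at the lowest, median and highest) and 66 in all 11 SB tails (0.459, 1.07 and 5.12). The log2 difference was -1.97 ± 0.43 (edgeR, adjusted p = 9.53e-04), and without repeated sequence 16 PB and 46 SB insertions remained. Galntl6, a putative N-acetylgalactosaminyltransferase, had 7 PB and 37 SB insertions (5.01-fold more in SB tails), and Grm7, a metabotropic glutamate receptor, 6 and 32 (5.05-fold). Ano4, an anoctamin, had 1 PB insertion and 23 SB insertions in 9 tails, a ratio of 21.8 with a counting interval of 3.54 to 898. Kcnn2, a calcium-activated potassium channel, and Nol4 had no PB insertion and 16 and 11 SB insertions, at least 5.05- and 3.47-fold more. In unique sequence the PB and SB insertions were 7 and 30 in Galntl6, 6 and 25 in Grm7 and 1 and 19 in Ano4. For Kcnn2 and Nol4, 14 and 9 SB insertions remained.

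Single mice carried much of 2 genes. Of the 56 SB insertions in Csmd1, a complement control protein of the brain, 28 were in SB tail 6, which has the excess on chromosome 8. Without that tail the log2 difference of Csmd1 went from -2.33 to -1.61 (edgeR, adjusted p = 0.0332). Lsamp, a neuronal adhesion protein on chromosome 16, had 34 insertions in all 12 PB tails and 128 in all 11 SB tails, of which 73 were in SB tail 1. Without that tail Lsamp no longer passed (log2 -0.81, edgeR, adjusted p = 0.135). In unique sequence Csmd1 had 8 PB and 50 SB insertions, and Lsamp 34 and 104.

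Other members of the 12 long neuronal genes had adjusted p-values closer to the threshold. Ctnna3, Csmd3, Lrp1b, Dlg2, Cntn5, Magi2 and Kcnd2, which encode adhesion, scaffold, channel and receptor-like proteins, had SB shares 2.47- to 5.37-fold those of PB (edgeR, adjusted p between 0.0188 and 0.0456). In unique sequence Ctnna3 had 18 PB and 37 SB insertions, Csmd3 6 and 23, Lrp1b 20 and 51, and Dlg2 25 and 60. Cntn5 had 10 and 30, Magi2 16 and 34, and Kcnd2 3 and 12. Leaving out 1 tail at a time kept Magi2 past the threshold in 11 of 23 fits and Kcnd2 in 14. With insertions of at least 10 reads Lrp1b and Kcnd2 passed and the other 5 did not, and with DESeq2 Kcnd2 did not (adjusted p = 0.0834). Olfactory and vomeronasal receptor genes, small genes silent in skin, had too few insertions for any to be tested. All 1438 of them together had 37 PB insertions, 0.288 times what their sites give, and 145 SB insertions, 0.981 times.

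Notch1 and Chl1, which hold recurrent positions, did not pass both tests. They were chosen after their values were seen. Notch1 had 51 insertions in all 12 PB tails and 38 in all 11 SB tails, 147 and 67.3 times what the sites give. It did not differ in share (edgeR, adjusted p = 0.414) and differed relative to sites (adjusted p = 0.0442). Of these insertions, 51 PB and 29 SB were in unique sequence. Chl1, a neuronal adhesion gene with 2 recurrent SB positions, had 9 and 27 insertions (adjusted p = 0.0691), of which 8 and 10 were in unique sequence.

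Windows of 100 kb gave a picture that does not depend on gene annotation. Of 23389 windows, 1226 had at least 10 insertions and were tested. In the share 164 differed (13.4%), 140 higher in PB and 24 in SB tails, or 41 and 18 with TMM scaling, which moved the median log2 from 0.51 to 0.36. Without SB tail 4, the tail whose removal moved the count most, 82 differed, 67 higher in PB and 15 in SB tails. In windows of 1 Mb the balance turned, with 161 higher in PB and 256 in SB tails in the share, and 166 and 256 relative to sites. Relative to sites 93 differed (7.59%), 73 and 20, or 38 and 20 with TMM scaling. Within joined and separated names alone, 7 and 23 windows passed in the share. Of the 92 windows that passed both tests in the same direction (7.5%), 73 were higher in PB (5.95%) and 19 in SB tails (1.55%). The 73 had a median GC content of 43.1% and a median of 54.4% of their length in genes. The 19 had 37.4% and 0%, against 41.4% and 74.9% over all windows tested. Of the 73, 68 reached 10 insertions through PB alone and 0 through SB alone, and of the 19, 1 and 19. Over the 1226 tested it was 238 and 64. Most called windows thus entered the test through the system in which they are higher. The balance between systems and the medians describe the calls and do not support them. In 8 of the 19 SB windows, a single tail held the majority of the SB insertions, and in none of the 73 PB windows.

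The leading PB windows lay in or beside known genes. On the same chromosome as the Trp63 window, a window over Tprg (chr16:25400001-25500000) had 21 insertions in 10 PB tails and 1 SB insertion. A window over the host gene of the epithelial microRNA Mir205 (chr1:193500001-193600000) had 21 in 8 PB tails and 1 SB insertion. The ratio was 22.2 in both, with a counting interval of 3.56 to 917. Windows in Nhsl1 (chr10:18400001-18500000) and in Maml2 (chr9:13500001-13600000), a Notch coactivator, had 17 and 14 PB insertions and no SB insertion, at least 5.98- and 4.93-fold more.

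The window with the smallest p had no gene. It lies at chr2:98600001-98700000 and had 59 insertions over all 11 SB tails (0.278, 1.32 and 2.14 per 1000 at the lowest, median and highest) and none in PB tails, at least 18.6-fold more in SB tails (edgeR, adjusted p = 3.22e-13). Of these insertions, 45 were in repeated sequence and 14, in 9 tails, in unique sequence. The windows over En2 and Sfi1 were also among the leading 5, with 0 and 28, and 17 and 59 insertions in PB and SB tails. The other 2 rest on 1 mouse each: 24 of the 25 SB insertions of a window at chr16:39700001-39800000 were in SB tail 1 (permutation test of the share, p = 0.218), and 11 of the 13 of a window at chr5:82200001-82300000 in SB tail 9 (permutation test, p = 0.0916).

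Across all windows the systems hardly followed each other. Observed over expected insertions of 22813 windows correlated between PB and SB with Pearson's r of 0.117 and Spearman's rho of 0.0537, values that also hold the counting error of about 2 insertions per window. PB left 24.4% of windows without an insertion, where a Poisson distribution with each window's mean set by its motif sites gives 13.8%. SB left 15.01% empty, where Poisson gives 11.8%. The 1% of windows with the most insertions held 6.04% of PB and 4.41% of SB insertions, and the highest single window held 42 and 59.

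The tumours of the same study gave a reference for these tail values. Near start sites, the PB ratio was 2.14 in tails and 1.97 ± 0.178 in tumours (SD, n = 30), and the SB ratio was 0.932 in tails and 0.925 ± 0.0696 in tumours (SD, n = 11). The tail minus tumour difference was larger in PB than in SB by 0.166 (permutation of tissue within system, p = 0.0121, adjusted p = 0.0483 over 4 features). For gene bodies, termination sites and orientation the corresponding tests did not pass, and none of the 4 was repeated within name forms. Gene by gene, the test of whether the difference between systems changed with tissue passed in 0 of 1318 genes (0%, edgeR, adjusted p below 0.05). At an unadjusted p below 0.05 there were 145 genes, so a missing call does not show that a gene was unchanged.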

How the data were processed

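Insertions of 12 PB and 11 SB tails were compared, with tumours used only for tests of whether the differences changed with tissue and for the number that shared a recurrent position. The authors deposited raw counts of reads per insertion position (mm10) in a table of 385883 lines, each with at least 2 reads. The reads came from splinkerette PCR of both transposon ends. The aligner, insertion caller and read filters are not given in the sources used here, nor is the handling of reads with several matches. A normalized coverage (1 per-sample column) was not used.

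Positions were moved to the nearest TTAA or TA within 5 bp. Of 57775 PB lines 23 were moved and 517 had no motif, and of 88980 SB lines 150 were moved and 70 had none. Autosomes other than 14 were kept. Genes are 24997 RefSeq curated genes of GRCm38, and expected insertions follow the region's share of motif sites.

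Tails were compared with two-sided permutation tests of means (100000 resamples, exact with a group under 10) and, by region, with edgeR quasi-likelihood tests on regions with 10 insertions or more, with Benjamini-Hochberg adjustment. Regions per site had the share of sites in the offset. Mice are separate samples, so p-values measure the spread between mice of 1 cohort each. Intervals (95%, Clopper-Pearson based) and the floor of 3 insertions cover counting error only. With a mean of 4010 and 4617 insertions per tail most genes receive too few insertions to be tested.

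Named genes are the 10 with the smallest p per direction called in both tests, En2, Foxf2 and Sfi1, and list members called in both tests. Named windows are the 5 per direction. Of the list members called, 1 is not reported here. The members and lists were chosen with earlier results of these data known. Others, as well as unevenness, recurrent positions, base preferences and repeated sequence, were chosen after their values were seen. On simulated data with 4-fold changes, the gene test recovered 91 of 190 genes among 1141 with 3 false calls, and 36 of 44 with at least 30 insertions. The simulated counts had the same spread between tails for all genes and no excess in single tails. The false calls therefore do not measure the error in these data, where SB tails depart singly. Alternatives covered read, count and gene filters, scaling, DESeq2, name forms, window size and single tails left out. Python 3.11.15 (numpy 2.4.6, pandas 2.3.3, scipy 1.17.1, matplotlib 3.10.9) and R 4.3.3 (edgeR 4.0.16, DESeq2 1.42.0) were used.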

Additional observations from a re-analysis of the deposited data

Results flagged for a closer look

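The tail minus tumour difference in the ratio near start sites was larger in PB than in SB by 0.166 (permutation of tissue within system, p = 0.0121, adjusted p = 0.0483), which was listed because the effect differs between the systems. PB tails lay at 2.14 and PB tumours at 1.97, while SB tails and tumours lay at 0.932 and 0.925.

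Lines outside the main measurement also carried signal. In the PB tails 517 lines had no TTAA within 5 bp, 0.907% ± 0.101 of the lines of a tail (SD, n = 12). Of these, 344 (66.5%) lay at 4 bases that differ from TTAA at 1 base, most often CTAA with 102 lines and TTAG with 101. In SB tails the lines without a TA were 0.0776% ± 0.0308 (SD, n = 11).

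Chromosome 14, left out as the donor chromosome, held 40.2% ± 3.48 of the lines of the SB tails (lowest 31.6%, highest 45.1%) and 13.3% ± 2.18 of those of the PB tails (lowest 8.91%, highest 16.4%). The groups did not overlap (permutation test, p = 1e-05, the smallest that the resamples can give).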

How the results depend on the processing

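Of the comparisons, those of gene bodies, start sites, termination sites and GC classes kept their direction and their side of the threshold under every alternative run for them. The sense orientation difference was 0.880 points among joined names and did not pass, and the difference in windows 92.6 to 100% inside genes, not past the threshold, turned to 0.0176 among separated names, and windows of 1 Mb changed which gene-content classes passed. The number of chromosomes called in the share was 1 with at least 10 reads, 1 with joined names, 0 with separated names (exact permutation tests), 4 without SB tail replicate 1 and 18 with chromosome 14 kept. Relative to sites it was 1, 1, 0 and 18 under the same settings other than the left-out tail. With chromosome 14 kept, chromosomes 8, 18 and 19 turned to PB by 1.04, 0.919 and 0.551 points in share and by 0.208, 0.237 and 0.229 relative to sites, since that chromosome then takes a large part of the SB total.

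Called genes in share and relative to sites (111 and 108) numbered 59 and 53 with at least 10 reads, 9 and 9 with joined names, 23 and 21 with separated names, 16 and 17 without a minimum count, 54 and 49 with DESeq2, and 0 and 0 when tails with an insertion were counted in place of insertions (32 and 30 at an unadjusted p below 0.05). By presence even En2, in all 11 SB tails and no PB tail, did not pass, so that setting could hardly call any gene. TMM scaling gave 73 in the share and a minimum of 5 gave 64 relative to sites. Called windows (164 and 93) numbered 65 and 55 with at least 10 reads, 7 and 6 with joined names, 23 and 16 with separated names, 59 and 58 with TMM, 66 and 29 with a minimum of 5, 23 and 21 with a minimum of 20, 18 and 18 without one, 2 and 2 by presence, 34 and 25 with DESeq2, and 417 and 422 in windows of 1 Mb, where most were higher in SB tails.

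Without each tail in turn the counts ranged from 80 to 126 (genes, share), 70 to 107 (genes, per site, 70 without SB tail 4), 82 to 182 (windows, share) and 64 to 111 (windows, per site). Window shares fell to 95, 98 and 103 without PB tails 2, 4 and 8, and to 94, 82, 97 and 105 without SB tails 1, 4, 6 and 11. The cause was not tested. Of 1039 refits of 30 named genes, 922 kept call and direction, 116 lost the call and 1 reversed, Lsamp by presence, at a log2 of 0.18. No paired analysis was possible because the sample names hold mouse identifiers, which pair no PB mouse with an SB mouse. A gene with few motif sites receives less than 1 insertion per group at this depth, so a missing call says nothing about it.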

Other observations

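Further genes that passed both tests and fall outside the naming rule, chosen after their values were seen, included Hjurp, the chaperone of the centromeric histone, with 10 PB insertions and 1 SB insertion. Pik3r1, a regulatory subunit of PI3-kinase, had 23 PB and 3 SB insertions, and the noncoding gene Chaserr 17 and 1. In the opposite direction, Ctnna1, an adherens junction protein that is not a neuronal gene, had 4 PB and 20 SB insertions.

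The neighbourhood of Aopep on chromosome 13 was also read after the values were seen. The adjacent Ptch1, the Hedgehog receptor, had 4 insertions in 3 PB tails and none in SB tails, and Fancc between them had 2 PB and 4 SB insertions.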
